A study of Homo sapiens with 38 samples.

Results

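The FGF family genes described here are 5 ligands (FGF2, FGF4, FGF8, FGF13 and FGF17) and the 4 tyrosine kinase receptors (FGFR1, FGFR2, FGFR3 and FGFR4). They were taken by symbol from the count table, 9 of its 57133 genes. RNA was measured with QuantSeq, in which each transcript is read near its polyadenylated 3′ end, in 38 libraries of Shef6, a human embryonic stem cell line. Naive cells were kept in PXGL (a MEK inhibitor, the tankyrase inhibitor XAV939, a protein kinase C inhibitor and LIF), either on serum coating (2 libraries) or on the basement membrane extract Geltrex (2 libraries in each of 2 experiments). All other libraries were from the same serum-adapted cells, plated on Geltrex after PXGL was withdrawn. In the first experiment (Ex1), cells were sampled at days 2, 3, 4, 6 and 8 in N2B27, a basal medium with no added FGF, and in E8, which contains FGF2 and TGFβ, and at days 4, 6 and 8 in mTeSR, a maintenance medium that also contains FGF2. In the second (Ex2), cells were taken at day 4 in N2B27, in N2B27 with XAV939 alone (XAV) and in N2B27 to which XAV939, Activin A and FGF2 had all been added (FAX). Each of the 19 groups held 2 libraries. One line was used, and no label states that the libraries of a group came from separate cultures. The study's descriptions call them biological replicates in some places and technical replicates in others, so that SDs, standard errors and p-values measure the spread between these libraries, which may be technical only.

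FGF ligands are secreted proteins that bind heparan sulphate and a receptor at the cell surface, and the paired receptors phosphorylate adaptors that switch on RAS and the kinase ERK. ERK signalling raises its own inhibitors, among them the Sprouty proteins and the DUSP phosphatases, so that their transcripts follow the activity of the pathway. In the blastocyst FGF4 is the ligand made by the epiblast, and human primed pluripotent cells are grown with FGF2, which they also make themselves. FGF13 is an exception in the family, an intracellular protein that binds sodium channels and microtubules and does not act through the receptors in the usual way.

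Total counts ran from 3038046 to 5612354 per library (median 4427277). The level of a gene is its CPM, the usual library-size scaled count, with library sizes adjusted by the TMM method, and 3 counts, taken as the lowest level that was read, were worth 0.520 to 1.06 CPM. Of the 9 genes, 8 passed the filter on low counts and were tested among 16674 genes; FGF17 did not. Adjusted p is that of edgeR's quasi-likelihood test with Benjamini-Hochberg adjustment over all tested genes, and a gene was called changed at an adjusted p under 0.05 with an absolute log2 fold change above 1. The naive label held in the markers: the summed level of 6 naive genes was 1109.5 to 1466 CPM in the naive libraries and 371 to 405 CPM at day 8 in N2B27. Of these, 6 of 6 were lower, against 7.03% of all genes. The sum of 6 primed genes went from 19.04 to 24.3 CPM to 671 to 762 CPM, with 6 of 6 higher, against 16.9% of all genes. The primed list includes DUSP6, an ERK feedback target that was at or under 3 counts in all naive groups. It passed the filter only through groups in which it was higher, so its direction was fixed. The libraries are of bulk RNA, in which fewer cells of a type and less RNA per cell cannot be told apart.

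Promoter sequence from RefSeq (GRCh38.p14) was matched for 5 of the 9 genes; FGF4, FGF8, FGF17 and FGFR1 had no entry. The stretches just upstream of FGF2 (chr4:122826581-122826681, plus strand) and FGFR3 (chr4:1793043-1793292, plus strand) are shown because these genes, on the same chromosome and strand, differed in response, a choice made after the values were seen: FGF2 was called higher than naive in every medium and FGFR3 in none. Capitals mark the GC box, GGGCGG or CCGCCC on the other strand, which is the recognition sequence of SP1-type factors.
FGF2: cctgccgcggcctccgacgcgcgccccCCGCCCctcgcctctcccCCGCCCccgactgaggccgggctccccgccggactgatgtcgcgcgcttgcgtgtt
FGFR3: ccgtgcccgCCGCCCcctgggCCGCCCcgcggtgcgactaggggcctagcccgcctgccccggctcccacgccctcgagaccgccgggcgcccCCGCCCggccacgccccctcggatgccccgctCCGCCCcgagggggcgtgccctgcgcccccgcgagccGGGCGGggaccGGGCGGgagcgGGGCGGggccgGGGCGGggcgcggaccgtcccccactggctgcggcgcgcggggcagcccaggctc
The FGF2 stretch was 80.2% G or C and held 2 GC boxes, a motif present in 17.5% of 35116 promoters in a window of the same length. That of FGFR3 was 86.8% G or C and held 8, against 42.6% of promoters with at least 1. Neither held the ETS core GGAA or its complement TTCC, which was found in 67.7% of promoters over the shorter window and in 92.7% over the longer one. These matches describe the letters of the windows only.

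In hg38 the ligand genes lie at chr4:122826682-122898236 (FGF2, plus strand), chr11:69771022-69775341 (FGF4, minus), chr10:101770109-101780371 (FGF8, minus), chrX:138614727-139222777 (FGF13, minus) and chr8:22042398-22048809 (FGF17, plus). The receptor genes lie at chr8:38400215-38468834 (FGFR1, minus), chr10:121478332-121598458 (FGFR2, minus), chr4:1793293-1808872 (FGFR3, plus) and chr5:177086905-177098144 (FGFR4, plus). FGF2 shares 9540 bases with NUDT6 on the opposite strand, 804 of them exonic in both, and FGFR1 shares 9313 bases with LETM2, 138 of them exonic in both. FGF13 is overlapped on the opposite strand by FGF13-AS1, TPM2P1 and an unnamed gene, and FGF2 and FGFR1 by 1 further unnamed gene each, whose levels were not analysed here. The strand setting of the counting is not given in the sources used here, so reads of FGF2, FGFR1 and FGF13 in these stretches could be assigned to either partner. NUDT6 stayed between 0.328 and 4.70 CPM and LETM2, looked up after the values were seen, between 0.354 and 2.53 CPM in all libraries, far under the levels of FGF2 and FGFR1 given below.

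The first question was how the FGF genes moved when cells left the naive state. FGF2 and FGFR1 rose in all media and at all days, FGF4 fell in most, FGF13 was called higher at day 8 in N2B27 and E8, and FGFR2, FGFR3 and FGFR4 were called in none of the 15 comparisons with naive cells. Of 120 tests of FGF genes against naive cells, 45 were called (32 higher, 13 lower), against 20.8% of all gene tests in these comparisons, and 79 had an adjusted p under 0.05, against 40.6%. In N2B27 the numbers called were 3, 2, 3, 3 and 4 of 8 at days 2, 3, 4, 6 and 8, where 16.2%, 15.6%, 18.4%, 23.1% and 23.9% of all genes were called. In E8 they were 4, 3, 3, 3 and 4 of 8, against 24.6%, 17.8%, 20.8%, 23.3% and 27.5%. In mTeSR 3 of 8 were called at each of days 4, 6 and 8, against 19.8%, 22.5% and 25.1%, and in XAV and FAX 2 of 8 each, against 17% and 17.1%. All 15 comparisons used the same 6 naive libraries as control and are therefore not independent of each other.

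FGF2, the ligand supplied in E8, mTeSR and FAX, was at 22.9 CPM in the lowest, 27.3 CPM at the median and 29.3 CPM in the highest of the 6 naive libraries. In N2B27 its level was 169 and 179.7 CPM at day 2, 263 and 296 CPM at day 3, 281 and 298 CPM at day 4 of Ex1, 394 and 429 CPM at day 4 of Ex2, 249 and 259 CPM at day 6 and 233 and 251 CPM at day 8. Every library out of PXGL was thus far above every naive library, also in the medium to which no FGF was added. In E8 the values were 224 and 240.2 CPM at day 2, 277 and 302 CPM at day 3, 343 and 348 CPM at day 4, 407 and 419 CPM at day 6 and 421 and 465 CPM at day 8. In mTeSR they were 349 and 359 CPM at day 4, 333 and 353 CPM at day 6 and 268 and 272 CPM at day 8. Within E8 the group means increased at each day sampled, while those of N2B27 and mTeSR were highest at day 4. The smallest difference from naive cells was 6.52-fold, in N2B27 at day 2 (SE of the log2 fold change 0.11, edgeR adjusted p = 9.69e-20; 16.2% of all genes were called in that comparison), and the largest 16.5-fold, in E8 at day 8 (4.05, SE 0.11, edgeR adjusted p = 1.41e-25; 27.5% of all genes).

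FGF4, the ligand of the early epiblast, went the other way. Its naive level was 297 CPM in the lowest library, 344 CPM at the median and 389.9 CPM in the highest. In N2B27 it was at 136 and 176 CPM at day 2, 209 and 212 CPM at day 3, 151 and 157 CPM at day 4 of Ex1, 154 and 159 CPM at day 4 of Ex2, 82.6 and 95.7 CPM at day 6 and 40.8 and 41.4 CPM at day 8. No library out of PXGL reached the lowest naive value, and the lowest level of all was that of N2B27 at day 8. E8 gave 99.4 and 106 CPM at day 2, 103 and 179 CPM at day 3, 117 and 127 CPM at day 4, 78.5 and 82.1 CPM at day 6 and 59.6 and 64.8 CPM at day 8, and mTeSR gave 116 and 136 CPM, 107 and 111 CPM, and 75.5 and 88.7 CPM at days 4, 6 and 8. The XAV and FAX libraries kept the most FGF4 of the day 4 groups, at 230.4 and 241 CPM and at 221 and 223 CPM. FGF4 was called lower than naive in 12 of 15 comparisons, by up to 8.38-fold in N2B27 at day 8 (log2 fold change -3.07, SE 0.16, edgeR adjusted p = 2.83e-17; 23.9% of all genes called). The 3 others had adjusted p-values under 0.05 by the same test but smaller differences, with log2 fold changes of -0.71 in N2B27 at day 3, -0.55 in XAV and -0.63 in FAX.

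**Figure D1:**
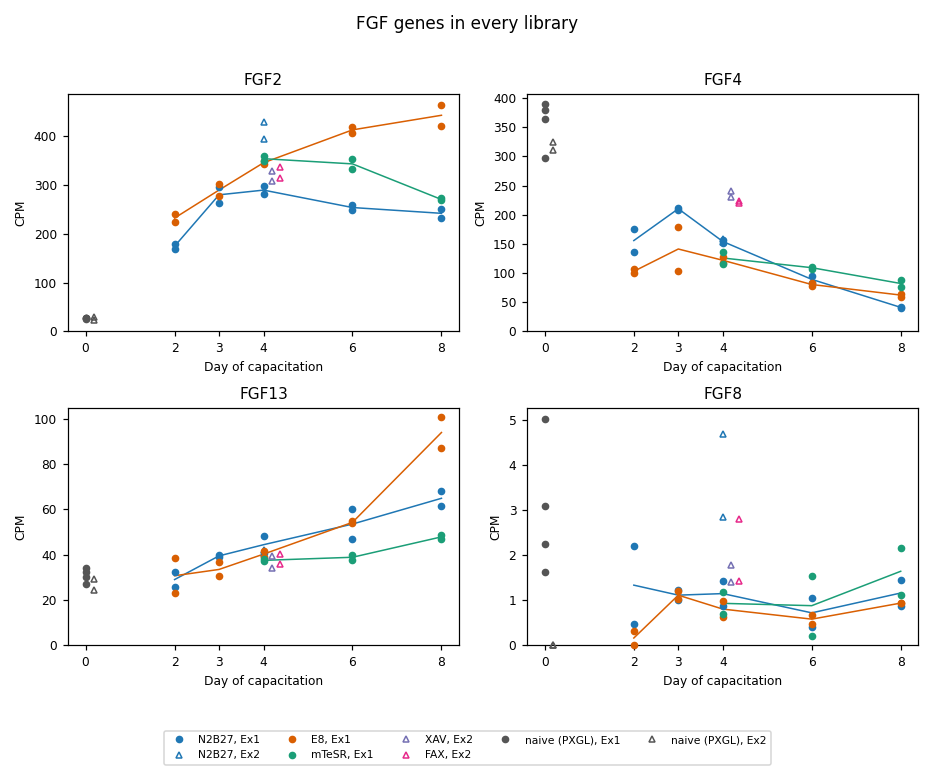
CPM of FGF2, FGF4, FGF13 and FGF8 in every library by day, with naive cells at day 0; filled circles are libraries of the first experiment, open triangles those of the second, and lines join group means. FGF2 lies at 22.9 to 29.3 CPM in naive cells and at 169 CPM or more in all other libraries, FGF4 declines to 40.8 and 41.4 CPM at day 8 in N2B27, and FGF13 is highest in E8 at day 8 (86.9 and 101 CPM).

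The balance of the 2 ligands therefore shifted. In a library of 3′ tags the ratio of the counts of 2 genes also depends on how well each 3′ end is captured, so that only its change between groups is read here. The FGF2 to FGF4 ratio was 0.0783 ± 0.0108 (SD, n = 6) in naive cells and had a mean of 1.13 at day 2, 2.25 (n = 4) at day 4 and 5.88 at day 8 in N2B27. It was 2.25 at day 2 and 7.12 at day 8 in E8, 2.83 at day 4 and 3.31 at day 8 in mTeSR, and 1.35 in XAV and 1.47 in FAX at day 4. The highest naive ratio was 0.0930 and the lowest one outside PXGL was 1.02, so that the groups did not overlap.

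FGF13 was above naive cells at an adjusted p under 0.05 in 9 of 15 comparisons. In naive cells it lay between 24.6 and 34.1 CPM. In N2B27 it was at 25.6 and 32.4 CPM at day 2, 38.9 and 40.05 CPM at day 3, 40.1 to 48.2 CPM in the 4 libraries of day 4 and 46.9 and 60.02 CPM at day 6, so that all libraries from day 3 lay above every naive one. It was at 61.6 and 68.1 CPM in N2B27 and at 86.9 and 101 CPM in E8 at day 8, all above the naive libraries, and these were the only 2 of its 15 comparisons that passed the fold threshold. The difference in N2B27 at day 6 (log2 fold change 0.84, edgeR adjusted p = 6.53e-06) passed it, at 1.01, without the second library of that group. The differences were 2.17-fold in N2B27 (log2 fold change 1.12, SE 0.14, edgeR adjusted p = 2.13e-08) and 3.15-fold in E8 (1.66, SE 0.13, edgeR adjusted p = 1.12e-12). In mTeSR at day 8 it was at 47.0 and 48.7 CPM, 1.61-fold above naive cells (edgeR adjusted p = 0.000201) and short of the fold threshold.

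FGF8 and FGF17, close relatives that pattern the gastrulating embryo, were near the limit of detection. FGF8 had 235 counts over all libraries, was above 3 counts in 27 of 38 and did not exceed 5.02 CPM. Its naive values were 3.099 and 5.02 CPM on serum coating, 1.62 and 2.24 CPM on Geltrex in Ex1 and 0 in both Ex2 libraries, a spread as wide as that of the other groups together. It was called lower than naive only in E8 at day 2, where it was at 0 and 0.328 CPM (edgeR adjusted p = 0.0379; 24.6% of all genes called), but these values overlap the naive range and DESeq2 gave an adjusted p of 0.0620. The naive control decided the calls of FGF8: with the serum-coated naive libraries alone it was called lower in 9 further comparisons (log2 fold change -2.74 in E8 at day 6, edgeR adjusted p = 0.00157), and with naive libraries on Geltrex of the same experiment it was called higher in N2B27 at day 4 (edgeR adjusted p = 0.00312), XAV and FAX. Those calls rest on the Ex2 naive libraries with 0 counts. In Ex1 alone the order on Geltrex was the opposite, with FGF8 at 0.867 and 1.43 CPM in N2B27 at day 4 and at 1.62 and 2.24 CPM in naive cells, while in Ex2 it was at 2.85 and 4.69 CPM in N2B27 at day 4. FGF17 had 48 counts in all and was above 3 counts in 4 libraries. It was at 0.881 and 1.264 CPM in N2B27 at day 8, and 1 library of N2B27 at day 6 had 1.01 CPM. The filter on low counts removed FGF17, so that the fit with the filter held no test of it. With no filter on low counts it was called higher than naive in N2B27 at day 6 (edgeR adjusted p = 0.0345) and day 8 (edgeR adjusted p = 0.00638), on counts of 7 or fewer.

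Among the receptors, FGFR1, the main FGF receptor of pluripotent cells, rose in every comparison with naive cells. Its naive level ran from 73.6 to 95.5 CPM. It was at 477 and 619.8 CPM in N2B27 at day 2, 398 and 476 CPM at day 3, 425 and 427 CPM at day 4 of Ex1, 339 and 393 CPM at day 4 of Ex2, 339.9 and 347 CPM at day 6 and 456 and 492 CPM at day 8. In E8 it was at 891 and 913 CPM at day 2, at 587 CPM in both libraries at day 3, 447 and 452 CPM at day 4, 371 and 379 CPM at day 6 and 339 and 376 CPM at day 8. The E8 libraries of day 2 were the highest of all, and the later E8 groups were successively lower. In mTeSR it was at 470.0 and 490.1 CPM at day 4, 434 and 462 CPM at day 6 and 472 and 537 CPM at day 8. Differences from naive cells ran from 4.14-fold in N2B27 at day 6 (log2 fold change 2.05, SE 0.10, edgeR adjusted p = 2.24e-18; 23.1% of all genes called) to 10.9-fold in E8 at day 2 (3.44, SE 0.10, edgeR adjusted p = 1.38e-24).

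FGFR3 went up and then down without passing the fold threshold. In naive cells it was at 58.7 to 85.3 CPM. It was at 116 and 134 CPM at day 2, 126 and 133 CPM at day 3, 54.0 and 59.6 CPM at day 6 and 50.9 and 54.6 CPM at day 8 in N2B27, at 147 and 151 CPM at day 2 and 69.9 and 70.6 CPM at day 8 in E8, and at 110.1 and 119.8 CPM at day 4 and 37.2 and 39.5 CPM at day 8 in mTeSR. Day 2 and day 3 libraries thus lay above all naive libraries, and those of N2B27 and mTeSR at day 8 below all of them. Of its 15 comparisons 12 had an adjusted p under 0.05, with 9 higher and 3 lower, and log2 fold changes from 0.97 (SE 0.13, edgeR adjusted p = 2.95e-07) in E8 at day 2 to -0.99 (SE 0.15, edgeR adjusted p = 2.31e-06) in mTeSR at day 8. Both extremes sat at the threshold and were called under some alternatives: the first at 1.03 with DESeq2, the second at -1.01 with no filter. The second was also called at -1.10 against naive libraries on Geltrex of the same experiment and at -1.11 against those on serum coating.

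FGFR2, whose splice forms serve epithelial and mesenchymal tissue, varied least and stayed between 22.3 and 48.1 CPM in all 38 libraries. It differed from naive cells at an adjusted p under 0.05 in 5 of 15 comparisons, with log2 fold changes between -0.47 and 0.38. FGFR4 was the lowest of the 4, at 8.48 to 21.0 CPM in naive cells, and had 7 of 15 comparisons with an adjusted p under 0.05, all higher than naive and up to a log2 fold change of 0.85 in mTeSR at day 8 (SE 0.24, edgeR adjusted p = 0.00330). That difference was called at 1.11 against naive libraries on Geltrex of the same experiment. Without the second Ex2 naive library FGFR4 was called in mTeSR at day 8 (1.03), XAV (1.02) and FAX (1.02).

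**Figure D2:**
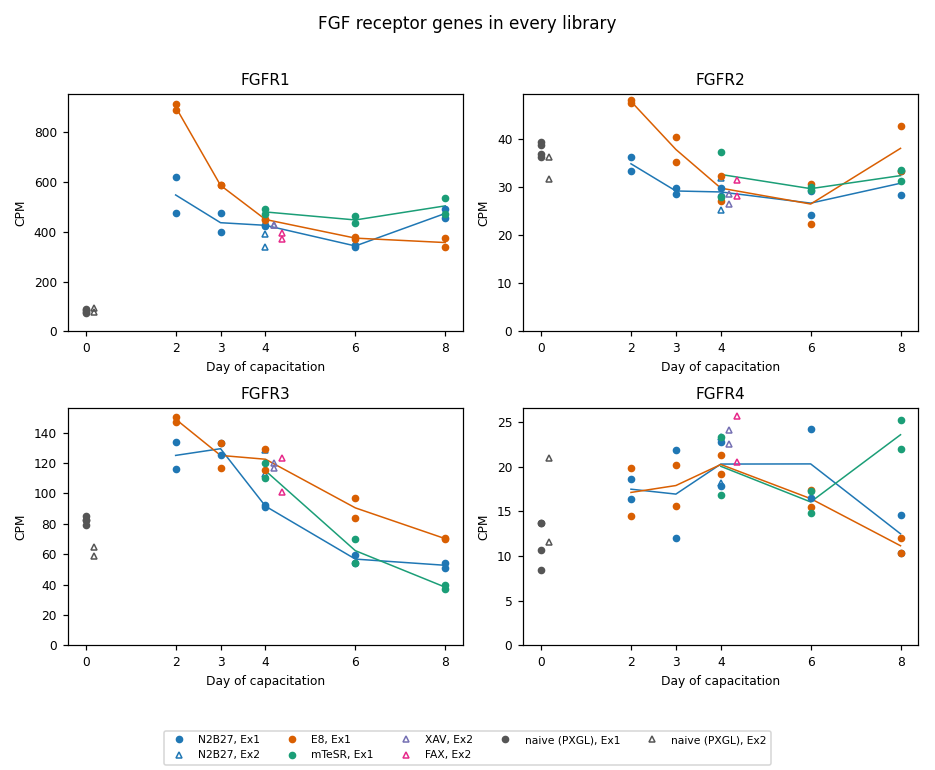
CPM of the 4 FGF receptors in every library by day, drawn as in the plot of the ligands. FGFR1 goes from 73.6 to 95.5 CPM in naive cells to 891 and 913 CPM in E8 at day 2, FGFR3 is higher than naive early and ends at 37.2 and 39.5 CPM in mTeSR at day 8, and FGFR2 stays between 22.3 and 48.1 CPM.

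As a result FGFR1 came to hold most of the receptor tags. Its share of the summed counts of the 4 receptors was 39.9% ± 3.26 (SD, n = 6) in naive cells and had a mean of 75.4% at day 2 and 83.1% at day 8 in N2B27, 80.8% at day 2 and 74.9% at day 8 in E8, and 84.2% at day 8 in mTeSR. FGFR3 held 36.2% of receptor tags in naive cells and 9.27%, 14.8% and 6.41% at day 8 in N2B27, E8 and mTeSR. The summed level of the receptors had a mean of 208 CPM in naive cells and of 447 to 1116 CPM in the other groups.

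**Figure D3:**
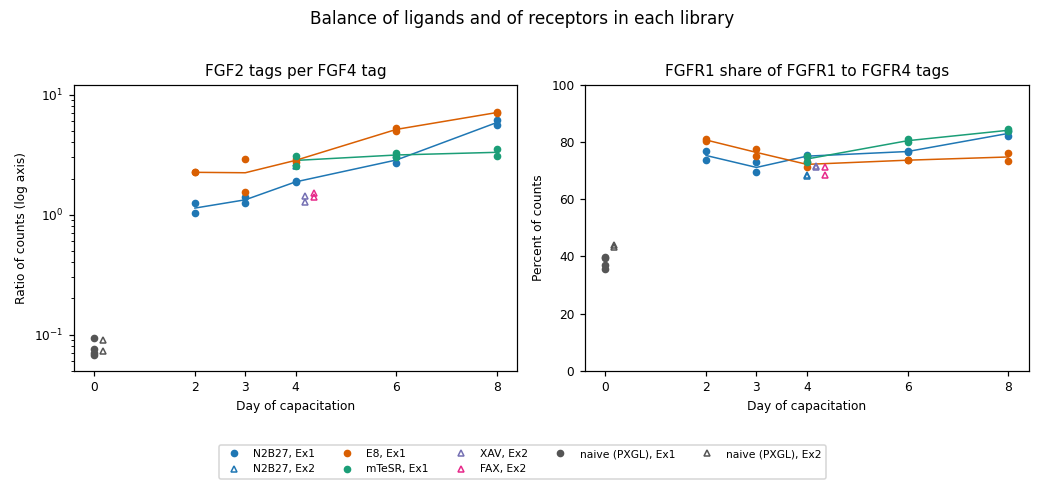
Left, the ratio of FGF2 to FGF4 counts in every library by day, on a log axis; right, the share of FGFR1 in the summed counts of the 4 receptors, in percent. The ratio goes from a mean of 0.0783 in naive cells to 5.88 in N2B27 and 7.12 in E8 at day 8, and the FGFR1 share from a mean of 39.9% to 74.9% or more at day 8.

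The next comparison asked how FGF genes in the other media differed from those in N2B27; E8, mTeSR and FAX contain added FGF2 and XAV does not. None of the 80 tests of FGF genes against N2B27 of the same day and experiment was called by edgeR, against 3.02% of all gene tests in these comparisons, and DESeq2 likewise called 0. At an unadjusted p under 0.05 there were 33, and 20 had an adjusted p under 0.05, 2 of them in XAV, against 8.96% of all gene tests. Over single comparisons, all genes called made up 4.55%, 1.68%, 2.49%, 5.28% and 7.29% in E8 at days 2, 3, 4, 6 and 8, and 1.58%, 2.62% and 3.8% in mTeSR at days 4, 6 and 8. Some differences were thus larger than the spread between libraries, although none passed both thresholds. Leaving out 1 library gave 0 to 1 calls, of FGF4 in E8 at day 3 or mTeSR at day 8, of FGFR4 in mTeSR at day 8, or of FGF8 in E8 at day 2, where its log2 difference was -2.84 (edgeR adjusted p = 0.0951) with all libraries and -3.47 without the second N2B27 library. The N2B27 libraries of a day served as control for both E8 and mTeSR.

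FGF2 itself was higher in E8 than in N2B27 at 3 of 5 days by adjusted p. At day 8 the 2 E8 libraries (421 and 465 CPM) were above those of N2B27 (233 and 251 CPM), a 1.83-fold difference (log2 0.87, SE 0.09, 95% interval 0.69 to 1.05, edgeR adjusted p = 2.17e-08; 7.29% of all genes called in that comparison). The log2 difference was 0.41 at day 2 (edgeR adjusted p = 0.00408), 0.05 at day 3 (0.819), 0.26 at day 4 (0.0802) and 0.70 at day 6 (1.92e-06). In mTeSR FGF2 was above N2B27 at day 6 (log2 0.44, edgeR adjusted p = 0.00226), while at day 8 the difference was 0.16 with a 95% interval of -0.02 to 0.34. mTeSR at day 8 was lower than E8 by 0.71 on the log2 scale (edgeR adjusted p = 1.66e-06). Both media contain FGF2, and the cause of the difference was not tested.

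FGF4 crossed over. E8 was below N2B27 at day 2 (log2 difference -0.60, SE 0.16, edgeR adjusted p = 0.00971) and at day 3 (-0.57, SE 0.15, edgeR adjusted p = 0.0180), and above it at day 8 (0.60, SE 0.17, edgeR adjusted p = 0.0116), where FGF4 was at 59.6 and 64.8 CPM in E8 and at 40.8 and 41.4 CPM in N2B27. The day 3 value rested on E8 libraries of 103 and 179 CPM, and without the second of them the log2 difference was -1.03 and the gene was called. In mTeSR at day 8 (75.5 and 88.7 CPM) FGF4 was 2.00-fold above N2B27 (log2 0.997, SE 0.17, edgeR adjusted p = 0.000143; 3.8% of all genes called), just short of the fold threshold. It was called without the first N2B27 library (1.01) or the first mTeSR library (1.11).

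FGF13 had an adjusted p under 0.05 against N2B27 only in E8 at day 8, where its log2 difference was 0.54 (SE 0.15, edgeR adjusted p = 0.0104). Between mTeSR and E8 at day 8 it was -0.97 (SE 0.16, edgeR adjusted p = 5.42e-05; 5.31% of all genes called), with both mTeSR libraries below both E8 libraries. It was called without the second E8 library (-1.08) or the second mTeSR library (-1.0004).

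FGFR1 was higher in E8 than in N2B27 early, with log2 differences of 0.72 at day 2 (SE 0.11, edgeR adjusted p = 6.84e-05; 4.55% of all genes called) and 0.43 at day 3 (edgeR adjusted p = 0.0186). At day 8 the order was the reverse (-0.41, SE 0.11, edgeR adjusted p = 0.00890), with 339 and 376 CPM in E8 and 456 and 492 CPM in N2B27. In mTeSR it was above N2B27 at day 6 (0.38, edgeR adjusted p = 0.0265) and above E8 at day 8 (0.50, edgeR adjusted p = 0.00265). FGFR3 was above N2B27 in E8 at days 4, 6 and 8, by 0.42, 0.67 and 0.41 on the log2 scale (edgeR adjusted p = 0.0228, 0.000301 and 0.0205), and below it in mTeSR at day 8 (-0.46, edgeR adjusted p = 0.0253).

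FGFR4 gave the one called difference among 24 tests between mTeSR and E8, against 2.17% of all gene tests there (0.084%, 1.1% and 5.31% at days 4, 6 and 8). At day 8 it was at 22.0 and 25.2 CPM in mTeSR and at 10.3 and 12.01 CPM in E8 (log2 1.08, SE 0.28, edgeR adjusted p = 0.00846). Against N2B27 at day 8 (10.4 and 14.6 CPM) the difference was 0.90 (SE 0.27, edgeR adjusted p = 0.0286). The call against E8 was lost without the first E8 library (edgeR adjusted p = 0.119) or the second mTeSR library (0.0949).

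**Figure D4:**
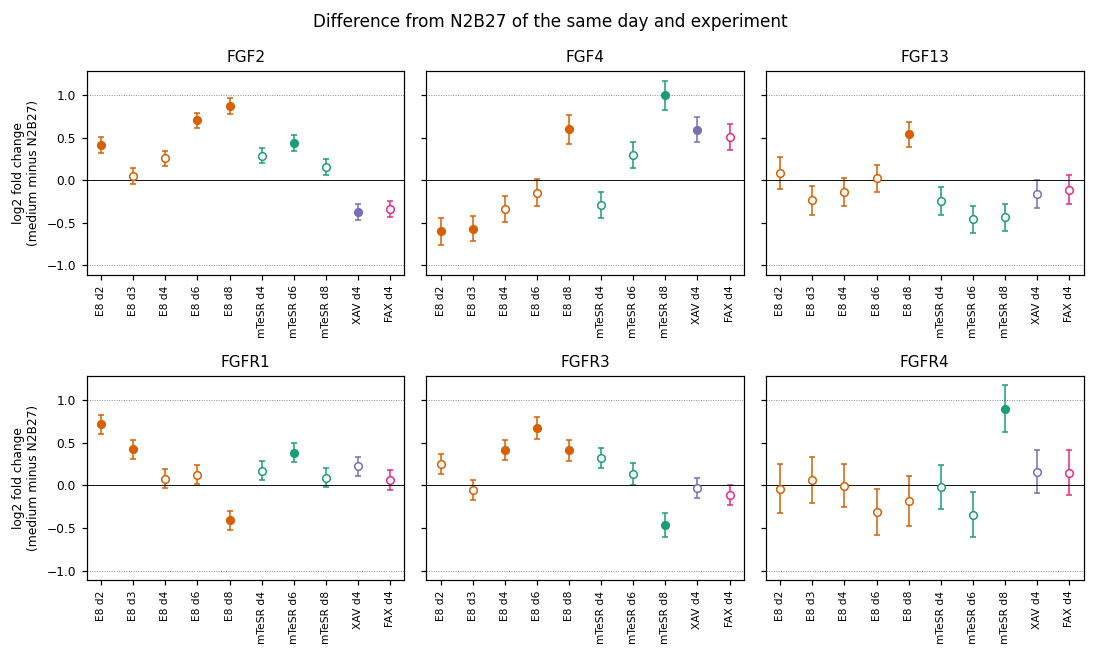
Log2 differences of E8, mTeSR, XAV and FAX from N2B27 of the same day and experiment for FGF2, FGF4, FGF13, FGFR1, FGFR3 and FGFR4; bars are standard errors, filled points have an adjusted p under 0.05, and dotted lines mark the fold threshold of 1 in either direction. FGF2 in E8 reaches 0.87 at day 8, FGF4 in E8 passes from -0.60 at day 2 to 0.60 at day 8, and no point with an adjusted p under 0.05 lies beyond a dotted line.

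Markers of other cell types moved with the differences between E8 and N2B27 from day 3. The summed level of 6 primitive streak genes was 17.5 to 23.4 CPM in N2B27 and 7.43 CPM in both E8 libraries at day 3, and that of 6 trophectoderm genes 30.6 to 34.5 CPM and 21.9 to 23.0 CPM. The streak sum was 62.9 to 63.4 CPM in N2B27 and 9.61 to 11.8 CPM in E8 at day 4 of Ex1. At day 4 of Ex2 it was 31.8 to 42.6 CPM in N2B27, 33.6 to 33.7 CPM in XAV and 49.9 to 54.2 CPM in FAX. It was 195 to 214 CPM in N2B27 and 48.5 to 51.9 CPM in E8 at day 6, when 6 primitive endoderm genes summed to 42.3 to 47.8 CPM in N2B27 and 9.56 to 11.4 CPM in E8. At day 8 the streak sum was 229 to 304 CPM in N2B27, 37.5 to 39.8 CPM in E8 and 152 to 200.3 CPM in mTeSR, against 4.10 to 22.0 CPM in naive cells, and the endoderm sum was 154 to 173 CPM, 18.6 to 22.9 CPM and 82.3 to 86.3 CPM, against 1.02 to 4.21 CPM. In E8 against N2B27 at day 8, 4 of 4 tested streak genes and 5 of 5 tested endoderm genes were lower, against 3.96% of all genes. A gene low in E8 may have passed the filter only through N2B27, so these counts are no evidence about either list. All genes of both lists were above 3 counts in N2B27 at day 8, while the streak genes TBX6 and MESP1 were at or under that level in E8 and mTeSR. Trophectoderm genes summed to 60.5 to 71.6 CPM in N2B27, 22.5 to 24.5 CPM in E8 and 19.3 to 20.4 CPM in mTeSR at day 8, against 15.5 to 23.8 CPM in naive cells. The part of these markers in the values of FGF2, FGF4, FGF13, FGFR1, FGFR3 and FGFR4 was not tested.

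At day 4 of Ex2, tankyrase inhibition with and without FGF2 and Activin A was compared with N2B27. FGF2 was at 307 and 328 CPM in XAV and 314 and 337 CPM in FAX, all below N2B27 of Ex2 at 394 and 429 CPM. The log2 difference was -0.37 in XAV (SE 0.09, edgeR adjusted p = 0.0248; 0.57% of all genes called) and -0.34 in FAX (SE 0.09, edgeR adjusted p = 0.0771; 0.336% of all genes called). FGF4 was higher than N2B27 (154 and 159 CPM) in both, by 0.59 in XAV (SE 0.15, edgeR adjusted p = 0.0288) and 0.51 in FAX (SE 0.15, edgeR adjusted p = 0.121), with the same 2 N2B27 libraries as control. Against E8 and mTeSR at day 4 these media also differ in experiment, which cannot be told apart from the medium.

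FAX and XAV differ by FGF2 and Activin A. None of the 8 tested FGF genes was called between them by edgeR, against 0.012% of all genes, and 0 had an unadjusted p under 0.05; DESeq2 called 0. The log2 difference, FAX minus XAV, was 0.04 for FGF2 (95% interval -0.14 to 0.22), -0.09 for FGF4 (-0.37 to 0.20), -0.16 for FGFR1 (-0.38 to 0.06) and -0.08 for FGFR3 (-0.31 to 0.15), so that larger differences than these bounds are outside the intervals while smaller ones are not.

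Between consecutive days in the same medium, 1 of 80 tests of FGF genes was called, against 2.52% of all gene tests, and 15 had an adjusted p under 0.05, against 7.4%. For the steps from day 2 to 3, 3 to 4, 4 to 6 and 6 to 8, the share of all genes called was 3.18%, 1.09%, 3.89% and 1.43% in N2B27 and 7.56%, 0.81%, 2.51% and 0.804% in E8, and for the last 2 steps it was 2.91% and 0.978% in mTeSR. The call was FGF4 in N2B27, which fell from 82.6 and 95.7 CPM at day 6 to 40.8 and 41.4 CPM at day 8 (log2 -1.12, SE 0.17, edgeR adjusted p = 5.26e-05; 1.43% of all genes called). FGF4 was also lower at day 6 than at day 4 in N2B27 (-0.79, edgeR adjusted p = 0.000558) and in E8 (-0.60, edgeR adjusted p = 0.0142). From day 2 to day 3 in E8 it was higher by adjusted p (0.46, edgeR adjusted p = 0.0341), but the libraries of those days overlapped. FGF2 differed in N2B27 from day 2 to day 3 (0.68, SE 0.09, edgeR adjusted p = 1.19e-05) and in E8 over the same step (0.32, SE 0.09, edgeR adjusted p = 0.0149), and it was lower in mTeSR at day 8 than at day 6 (-0.34, SE 0.09, edgeR adjusted p = 0.0385). FGFR1 was lower in E8 at day 3 than at day 2 (-0.62, edgeR adjusted p = 0.000201) and higher in N2B27 at day 8 than at day 6 (0.47, edgeR adjusted p = 0.0129). FGF13 was higher in E8 at day 8 than at day 6 (0.79, edgeR adjusted p = 0.00288). FGFR3 had 5 such steps, all lower at the later day. In mTeSR these were from day 4 to 6 (-0.88, edgeR adjusted p = 1.03e-05, called at -1.08 without the second library of day 6) and from day 6 to 8 (-0.70, edgeR adjusted p = 0.00231), in N2B27 from day 3 to 4 (-0.50, edgeR adjusted p = 0.0140) and from day 4 to 6 (-0.69, edgeR adjusted p = 0.000245), and in E8 from day 4 to 6 (-0.44, edgeR adjusted p = 0.0214).

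The course over the 5 days was compared between E8 and N2B27 with the interaction of medium and day. It differed for 4 of 8 FGF genes, against 11% of all genes, with edgeR adjusted p = 0.000208 for FGF2, 0.00256 for FGF4, 0.000110 for FGFR1 and 0.0403 for FGFR3. For FGF13 the same adjusted p was 0.0920, and it fell to 0.0366 and 0.0350 when either E8 library of day 2 was left out. The FGFR3 call was the least stable of the 4. It was lost in 11 of the 20 fits that left out 1 library, with an edgeR adjusted p of up to 0.134 without the first N2B27 library of day 3, and of 0.0522 and 0.0600 without the first and the second E8 library of day 2. It was also lost with plain library totals (0.0564), with no filter (0.0591) and in the fit to the compared libraries alone (0.1202).

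Naive cells on the 2 coatings and in the 2 experiments gave 1 call in 24 tests of FGF genes, together with N2B27 at day 4 in the 2 experiments, against 1.91% of all gene tests (0.048% between coatings, 4.67% between the naive cells and 1.01% between the N2B27 cells of the 2 experiments). The call was FGF8, lower in Ex2 than in Ex1 on Geltrex (edgeR adjusted p = 0.00597; 4.67% of all genes called), and DESeq2 called 0 of the 24, of which 5 had an unadjusted p under 0.05 by edgeR. It was lost without either Ex2 library (edgeR adjusted p = 0.0510 and 0.0675). Between experiments, FGFR3 was lower in naive cells of Ex2 (-0.41, SE 0.13, edgeR adjusted p = 0.0257), and FGF2 was higher in N2B27 at day 4 of Ex2 (0.51, SE 0.09, edgeR adjusted p = 0.00103), a difference as large as several of those between media. In the titles the Ex2 naive libraries are of day 0, but their library names carry day 4.

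The rest of the pathway was followed through gene lists. Of 16 ERK feedback targets 15 were tested, and 15 of 15 were higher than naive in each of the 15 comparisons, with median log2 fold changes of 3.96 to 4.75. All naive libraries were in PXGL, which contains a MEK inhibitor, and no other library was. In these comparisons the withdrawal of that inhibitor cannot be told apart from the exit from the naive state. SPRY4, DUSP4, DUSP6, EGR1 and FOSL1 were at or under 3 counts in all naive groups and passed the filter only through groups in which they were higher, so that for these 5 the direction was fixed by the filter. Of all genes, 9.86% were called higher in N2B27 and 13.9% in E8 at day 2, and 9.78% to 18.2% over the 15 comparisons. SPRY4, a Sprouty inhibitor of receptor signalling, had 0 counts in the 6 naive libraries and was at 43.6 ± 2.17 CPM (SD, n = 2) in N2B27 at day 2, at least 42.5-fold higher than 3 counts per library. DUSP4, a nuclear ERK phosphatase, was at 0.130 ± 0.203 CPM (SD, n = 6) in naive cells and 24.3 ± 3.54 CPM (SD, n = 2) there (edgeR adjusted p = 4.18e-19). Both genes are among those 5, so the direction of their change was fixed by the filter and the p-value of DUSP4 adds no support. In N2B27, to which no FGF was added, the tested targets outside those 5 were also higher than naive at each day. Against N2B27 of the same day, edgeR called 0 of 15 in E8 or mTeSR before day 8 and 0 of 15 in XAV or FAX, with median log2 differences of -0.06 to 0.15; as 0.336% to 5.28% of all genes were called in these comparisons, a count of 0 is near the background.

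At day 8 the feedback targets split. ETV1 and ETV4, ETS factors downstream of ERK, were higher in E8 than in N2B27, ETV1 at 93.0 ± 9.67 against 44.9 ± 6.77 CPM (SD, n = 2 each; log2 1.05, edgeR adjusted p = 8.17e-07) and ETV4 at 78.1 ± 3.72 against 38.6 ± 2.60 CPM (1.01, edgeR adjusted p = 0.000149). The ERK phosphatase DUSP6 was lower in E8, at 67.6 ± 5.58 against 200.96 ± 5.24 CPM (-1.57, edgeR adjusted p = 3.55e-09), and so was the immediate early gene EGR1 (-1.12, edgeR adjusted p = 0.000936). The other 11 were not called, and over all genes 7.29% were. In mTeSR at day 8 ETV1 was higher than in N2B27 and DUSP6 and EGR1 were lower, 3 of 15 against 3.8% of all genes. The streak and endoderm markers given above moved with these genes too.

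Among the adaptors and kinases between receptor and ERK, of 20 listed, 19 were tested, and against naive cells 0 to 2 were called higher and 0 to 3 lower, with median log2 fold changes of -0.39 to -0.10. Over all genes 9.78% to 18.2% were called higher and 5.83% to 10.7% lower, so that these counts lie near the background; HRAS was among the higher and GAB1 and GAB2 were the most frequent of the lower. Of 13 co-receptors 10 were tested. GPC4, SDC1 and SDC2, heparan sulphate proteoglycans, were called higher from day 2 in N2B27, 3 of 10 at that day, where 9.86% of all genes were. SDC1 was at or under 3 counts in all naive groups and passed the filter only through groups in which it was higher. Its direction was thus fixed by the filter, and counts of higher co-receptors that include it are no evidence about the list. At day 8 in N2B27 6 of 10 were called higher, GPC6 among them, against 16.9% of all genes. SDC2 was higher in E8 than in N2B27 at day 8 (102 ± 3.88 against 34.2 ± 2.12 CPM, SD, n = 2 each; log2 1.58, edgeR adjusted p = 4.44e-08) and lower than N2B27 in XAV and FAX (-1.41 and -1.31).

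Of 6 FGF-binding proteins 3 were tested. In N2B27 at day 8, 2 of 3 were called higher than naive (FGFBP3 and FLRT3), against 16.9% of all genes, and in E8 against N2B27 at day 8, 2 of 3 were called lower (FLRT2 and FLRT3), against 3.96%. FLRT3, a membrane protein that associates with FGF receptors, was at 26.4 ± 6.23 CPM in N2B27 and 3.94 ± 1.58 CPM in E8 at day 8 (SD, n = 2 each; log2 -2.70, edgeR adjusted p = 4.24e-08). FGFBP3, a carrier that releases FGFs from the matrix, was higher than naive in N2B27 at day 8 (13.96 ± 2.38 against 1.74 ± 0.579 CPM; edgeR adjusted p = 1.74e-12). FLRT2 was lower in E8 than in N2B27 at day 8 (-1.30, edgeR adjusted p = 2.46e-06).

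Of 17 other FGF ligands 8 were tested. In N2B27 at day 8, 6 of 8 were called higher than naive, where 16.9% of all genes were. FGF1, FGF10 and FGF16 were at or under 3 counts in all naive groups and passed the filter only through groups in which they were higher, so that this count is no evidence about the list. In E8 against N2B27 at day 8, 1 of 8 was called higher (FGF16), against 3.33%, and 1 of 8 lower (FGF10), against 3.96%. FGF19, an endocrine FGF that needs KLB, was at 0.461 ± 0.553 CPM (SD, n = 6) in naive cells and at 5.85 ± 0.217 CPM (SD, n = 2) in N2B27 at day 2 (edgeR adjusted p = 9.61e-09). It was at 12.2 ± 0.861 CPM in N2B27, 11.2 ± 1.21 CPM in E8 and 18.5 ± 5.07 CPM in mTeSR at day 8, and it was called in none of the 10 comparisons of other media with N2B27. FGF16 was at 6.98 ± 3.78 CPM in E8 and 2.20 ± 1.24 CPM in N2B27 at day 8 (SD, n = 2 each; log2 1.60, edgeR adjusted p = 0.0177), but at day 4 it was lower in E8 (0.719 ± 0.460 against 4.84 ± 0.509 CPM; -2.72, edgeR adjusted p = 0.00374). FGF10, a ligand of FGFR2, had 0 counts in the naive libraries and was at 3.95 ± 2.52 CPM (SD, n = 2) in N2B27 at day 8, where the libraries differed widely. FGF1 was at 3.49 ± 1.20 CPM (SD, n = 2) there and at 0.0301 CPM on average in naive cells.

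The genes with the pattern most like that of an FGF gene were sought over the 19 group means among genes with a mean of at least 20 CPM in some group. These points share the naive groups as their largest contrast, so that the correlations are descriptions of this series only. FGF2 was most like DUSP4 (Pearson r = 0.99, Spearman rho = 0.85) and CAV1 (0.99 and 0.79). FGFR1 was most like SPRY2 (0.99 and 0.93), and FGFR3 like LY6E (0.96 and 0.96). FGF4 followed ZNF576 (0.96 and 0.95). For FGFR2 the leading gene was TMBIM4 (0.87 and 0.86), for FGFR4 XPO6 (0.80 and 0.77) and for FGF8 MARS2 (0.81 and 0.80). Between FGF2 and FGFR1 themselves r was 0.88 but rho was 0.07, the naive groups lying apart from the rest.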

How the data were processed

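RNA was measured in 38 QuantSeq libraries. The authors deposited raw whole-number counts per gene, which the tests used as they stand. The submitters' processing notes name FastQC 0.11.9, STAR 2.7.10a, Salmon 1.9.0, DESeq2 and hg38, and the study's methods name the nf-core/rnaseq workflow and tximport, so that the deposited counts may be rounded estimates. The strand setting and annotation release are not given in the sources used here. Samples were grouped by their labels.

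Counts were tested in R 4.3.3 with edgeR 4.0.16 (TMM scaling, filterByExpr with a minimum count of 10, quasi-likelihood test, Benjamini-Hochberg adjustment over 16674 genes). Comparisons with naive cells used 1 fit with 16 levels, in which N2B27 at day 4 pooled both experiments, and all others 1 fit of the 19 groups. The scripts were tested on simulated data. Alternatives were DESeq2 1.42.0, other scalings and filters, a replicate block, other naive controls, and leaving out each library.

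The FGF genes and gene lists were chosen with earlier results of these data known. All 9 FGF genes are reported; of each other list counts are given, and of its called genes in a comparison at most 4 are named, from those with the largest absolute log2 fold changes, and for each FGF gene the most correlated genes over group means (log2 CPM, prior count 2), except for FGF17, which did not pass the filter, and FGF13, for which they are not reported here. Intervals are 95% intervals of the log2 difference. Depth was 3038046 to 5612354 counts, and the floor of 3 counts covers counting error only. Positions are those of GENCODE on hg38.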

Additional observations from a re-analysis of the deposited data

Results flagged for a closer look

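The course over days 2 to 8 differed between E8 and N2B27 for 4 FGF genes by the interaction test of edgeR, with adjusted p = 0.000208 for FGF2, 0.00256 for FGF4, 0.000110 for FGFR1 and 0.0403 for FGFR3. For FGF2 the log2 difference, E8 minus N2B27, was 0.41, 0.05, 0.26, 0.70 and 0.87 in the order of the days sampled (2, 3, 4, 6 and 8). FGF4 and FGFR1 changed order, FGF4 from -0.60 at day 2 to 0.60 at day 8 and FGFR1 from 0.72 to -0.41. For FGFR3 the adjusted p ran from 0.0235 to 0.1202 over the alternatives and from 0.0263 to 0.134 when 1 library was left out, with the call lost in 11 of 20 such fits. The streak markers, from day 3, and at the later days the endoderm markers also differed between E8 and N2B27, and their part in these courses was not tested. No library stood apart from its group by Dixon's test in the groups of 6 naive and 4 N2B27 day 4 libraries, in which chance marks about 1 group in 20.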

How the results depend on the processing

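The count of FGF calls against naive cells, 45 of 120, ran from 44 (fit to the compared libraries alone) to 55 (naive cells on serum coating only) over the alternatives. The count between coatings and experiments, 1, was 2 in the fit to the compared libraries alone and 0 with DESeq2. The count of differing courses, 4, was 3 with plain library totals, with no filter and in the fit to the compared libraries alone. Against naive cells on Geltrex of the same experiment, both of which had 0 counts of FGF8 in Ex2, the fitted log2 difference of FGF8 turned to 5.86 in XAV and 6.24 in FAX, from -0.40 and -0.01; against 0 counts these values depend on the prior count and are no sizes, and FGF8 was at 1.41 to 2.80 CPM in XAV and FAX. Leaving out 1 library at a time gave 44 to 49 calls against naive cells, 0 to 1 between media and N2B27, 0 to 2 between mTeSR and E8, 0 to 0 between XAV and FAX, 1 to 2 between consecutive days, 0 to 1 between coatings and experiments and 3 to 4 for the course, where FGF13 took the place of FGFR3 without either E8 library of day 2; the cause was not tested. FGF4 in E8 at day 3 was -0.94 against naive cells without the first library, and in N2B27 at day 2 it was -0.96 without the second, both then short of the threshold. Same-numbered libraries mostly did not deviate together (7 of 105 pairs of groups in Ex1 and 0 of 6 in Ex2 had a correlation over 0.1). The correlations ran from -0.35 to 0.26 in Ex1, with a median of 0.007, and from -0.04 to 0.05 in Ex2. With the replicate block the count against naive cells was 45 and no other count changed. Plain library totals moved the median of all genes in E8 at day 2 against naive cells to -0.15, and the share of higher calls from 56.5% to 45.9%. Genes near 3 counts, FGF8 and FGF17, are limited by depth.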
